A study of Mus musculus with 8 samples.

Results

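MHC class II genes encode the cell-surface molecules that present peptides to CD4 T cells. The 7 genes examined were Ciita, H2-Aa, H2-Ab1, H2-Eb1, Cd74, H2-DMa and H2-DMb1, and their members in the data were all ATAC-seq peaks that touched a gene body or the 10000 bp on either side of it (mm10, the assembly GRCm38). Peaks of 8 libraries were merged where they overlapped, and 44 of the 123260 merged regions belonged to these genes. Of the 44, 14 had a peak summit of any library within 3000 bp of a member's start site (promoter regions) and 30 were distal. Distances given below run from the nearest annotated start of the gene to the median summit of the region over the libraries that listed it. 12 regions had a peak in all 8 libraries, 27 in at least 4, and 17 in 1 to 3.

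ATAC-seq maps open chromatin by the insertion of sequencing adapters with the Tn5 transposase. Bone marrow was taken from female 4.5-month-old mice of the strain 129Sv4/Jae x B6, either wild type (WT) or Xist knockout (XistΔ/Δ). In this homozygous knockout the Xist 2lox alleles are deleted by the Vav-iCre transgene. The transgene acts across blood cells from the stem cell stage on, so that the deletion is also present in mature progeny. Whether the WT mice carried Cre or the 2lox allele was not given in the sources used here. LSK+ cells (Lin-, SCA-1+, c-KIT+, the gate that holds hematopoietic stem cells) and LSK− cells (Lin-, SCA-1-, c-KIT+ myeloid progenitors) were sorted, with the lineage antibodies removing cells that carry CD11b, Gr-1, CD3ε, B220, CD8a, CD4 or TER-119, and about 10000 cells went into a reaction. Each of the 4 groups had 2 libraries, which the study calls biological replicates. Whether each came from a separate mouse was not stated, so p-values measure only the spread between these libraries.

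Ciita is the transactivator that switches class II genes on and itself binds no DNA. It is recruited by the RFX, CREB and NF-Y proteins that sit on a shared set of sequence boxes (S, X and Y) ahead of class II promoters. H2-Aa and H2-Ab1 encode the α and β chains of I-A, H2-Eb1 the β chain of I-E, Cd74 the invariant chain that occupies the groove until peptide loading, and H2-DMa and H2-DMb1 the chains of H2-DM, which exchanges its remnant for peptide. These genes are best known from B cells, dendritic cells and macrophages. Ciita is transcribed from separate promoters that are used in dendritic cells (pI), B cells (pIII) and interferon-γ-treated cells (pIV).

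Peak strength was expressed as a percentile: peaks of 1 library were ranked by their −log10 p, so that 80 means a peak at or above 80% of that library's own peaks, and 0 means that no peak was listed. The lists held 29829 to 91590 peaks, the shortest being LSK+ WT replicate 2 and the longest LSK− XistΔ/Δ replicate 1. The background pileup, the number of fragments over an average position as MACS2 estimated it, ran from 0.482 in LSK+ WT replicate 2 to 3.87 in LSK− XistΔ/Δ replicate 1. A missing peak therefore says only that no peak passed the threshold in that library. Both XistΔ/Δ groups had longer lists than the WT groups in the same replicate, and percentiles rose with list length. Over all 60447 regions listed in at least 4 libraries, the median of the XistΔ/Δ minus WT difference was 14.3 points in LSK+ and 9.3 points in LSK−, whereas that of LSK− minus LSK+ was 0.946 points. The region in the 5′ part of Xist, the targeted gene, stood at percentiles 80.6 and 51.2 in WT LSK+ and at 80.2 and 70.2 in WT LSK−. It had no peak in 3 of the 4 XistΔ/Δ libraries and stood at 26.9 in LSK− XistΔ/Δ replicate 2.

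The alternative Ciita promoters were first compared. Ciita (ENSMUSG00000022504.10) lies on the forward strand at chr16:10480059-10528418, and its annotated starts form 3 groups, at 0, 8.2 and 9.7 kb from the most upstream one, in the order of pI, pIII and pIV. No library had a peak within 500 bp of the most upstream start. The closest region, chr16:10475840-10476394, had its summit 3979 bp ahead of it and was listed only in LSK+ WT replicate 1 (percentile 40.7) and LSK+ XistΔ/Δ replicate 1 (45.8). The region at the middle start (chr16:10487740-10488229) was listed in 6 libraries. It stood at 33.3 and 0 in WT LSK+, 68.0 and 44.8 in XistΔ/Δ LSK+, 38.6 and 0 in WT LSK−, and 51.1 and 43.3 in XistΔ/Δ LSK−. Both zeros were WT replicate 2 libraries, the shortest lists, and LSK+ and LSK− overlapped. The region at the 3′ start (chr16:10489246-10490119) stood at 33.4 and 0 in WT LSK+ and at 47.8 and 35.7 in XistΔ/Δ LSK+. In LSK− cells it was listed only in XistΔ/Δ replicate 1, at 4.22. Every library of either cell type with this peak also had the middle-start peak, and 2 libraries, both LSK−, had the middle-start peak alone.

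**Figure D1:**
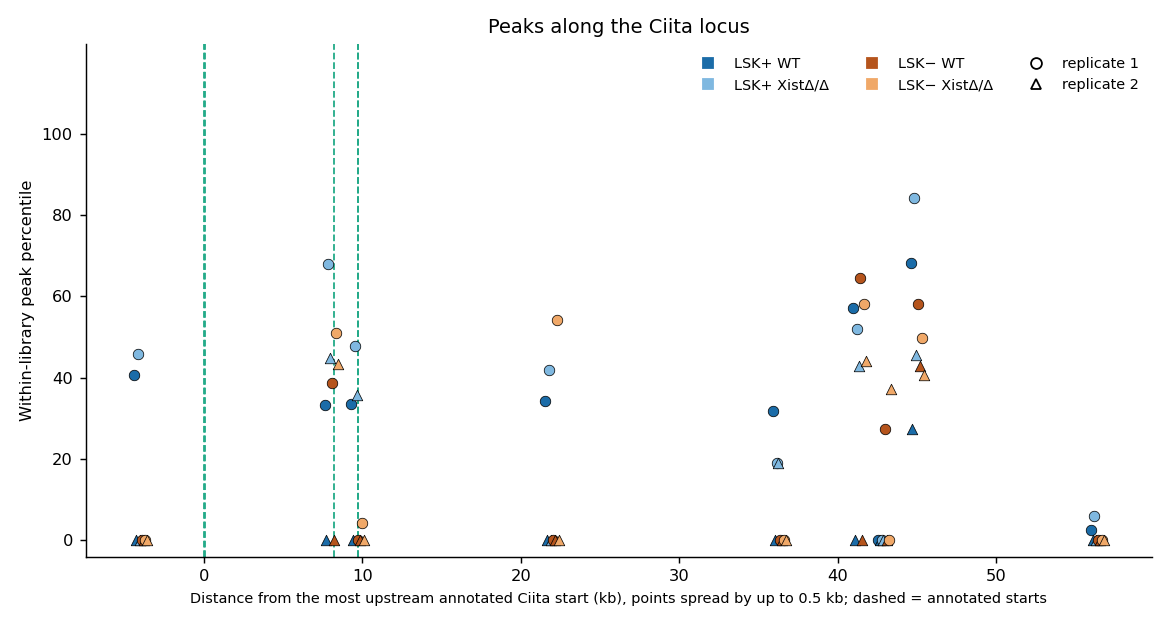
Peaks along Ciita. The x axis is the distance from the most upstream annotated start in kb and the y axis the within-library percentile, with 1 point per library at each of the 9 regions. LSK− points reach 51.1 at the middle start, while the highest of them at the 3′ start is 4.22.

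Within Ciita introns, 2 further regions were listed in at least 6 libraries. The one with its summit 35.3 kb past the 3′ start (chr16:10524744-10525340) was the only Ciita region listed in all 8 libraries. It stood at 68.2 and 27.4 in WT LSK+, 84.2 and 45.6 in XistΔ/Δ LSK+, 58.1 and 42.8 in WT LSK−, and 49.7 and 40.7 in XistΔ/Δ LSK−. The region 31.6 kb past that start (chr16:10521285-10521617) was listed in 6 libraries at 42.9 to 64.5 and was missing in both WT replicate 2 libraries. The other 5 Ciita regions were listed in 2 or 3 libraries each.

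The genes for the I-A and I-E chains lie together on chromosome 17, and their promoters were listed in all 8 libraries. At H2-Aa (ENSMUSG00000036594.15, reverse strand, chr17:34282744-34287823) the promoter region chr17:34287105-34288197 stood at 87.5 and 62.3 in WT LSK+ and at 89.2 and 79.9 in XistΔ/Δ LSK+. It stood at 80.3 and 60.4 in WT LSK− and at 83.0 and 79.3 in XistΔ/Δ LSK−. The H2-Ab1 promoter (ENSMUSG00000073421.6, forward strand, region chr17:34262940-34263566) stood at 77.8 and 58.7 in WT LSK+, 88.0 and 74.0 in XistΔ/Δ LSK+, 71.7 and 42.6 in WT LSK−, and 78.7 and 66.7 in XistΔ/Δ LSK−. The H2-Eb1 promoter (ENSMUSG00000060586.11, forward strand, region chr17:34305616-34306025) stood at 79.6 and 51.5, 89.9 and 75.1, 79.5 and 58.9, and 77.9 and 75.8 in the same order of groups. At all 3 promoters the lowest library was a WT replicate 2 library and the LSK+ and LSK− ranges overlapped. These promoters were thus open above the median peak in 7 or 8 of the 8 libraries, in cells of both gates. The H2-Eb1 region also holds the start of Gm20513, an antisense RNA gene, and the data cannot tell the signals apart.

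The promoters of H2-Aa and H2-Eb1 are shown as examples. Their median summits lay 97 and 47 bp ahead of the start, inside the stretch printed. Those at the H2-DMa starts, 113 and 187 bp ahead, were as near as 250 bases too, and that gene is not shown. RefSeq promoter entries (GRCm38.p6) matched 4 of the 7 genes, H2-Aa, H2-Eb1, H2-DMa and H2-DMb1, and not Ciita, H2-Ab1 and Cd74. The 250 bases ahead of the start are given 5′ to 3′ on the gene's strand, for H2-Aa chr17:34287824-34288073 and for H2-Eb1 chr17:34305617-34305866. Capitals mark 2 motifs on either strand. CCAAT, which reads ATTGG from the other strand, is the core of the Y box that NF-Y reads. TGACG is the core of a CREB site.
H2-Aa: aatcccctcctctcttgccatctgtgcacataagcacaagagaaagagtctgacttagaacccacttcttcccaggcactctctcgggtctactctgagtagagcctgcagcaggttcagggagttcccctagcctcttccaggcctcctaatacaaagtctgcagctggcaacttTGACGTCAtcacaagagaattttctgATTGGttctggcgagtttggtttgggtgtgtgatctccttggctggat
H2-Eb1: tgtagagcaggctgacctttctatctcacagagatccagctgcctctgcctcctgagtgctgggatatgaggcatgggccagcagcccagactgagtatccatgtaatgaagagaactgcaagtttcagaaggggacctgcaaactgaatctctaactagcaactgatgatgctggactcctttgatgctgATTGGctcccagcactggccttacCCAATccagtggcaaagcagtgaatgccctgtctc

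Both promoters held ATTGG, starting at −48 in H2-Aa and at −59 in H2-Eb1, and H2-Eb1 held a second match, CCAAT at −35. H2-Aa held 2 overlapping TGACG matches on opposite strands at −74 and −71. CCAAT occurred on either strand in 33.8% of the 32851 RefSeq promoters over the same 250 bases, and TGACG in 17.8%. The other motifs searched on both strands were GAGGAA (23.3% of promoters), the paired GAAA repeat of interferon response elements (2.98%), TTCNNNGAA (7.02%) and CACGTG (6.02%), with no match in either promoter. A match is a description of letters and not a site.

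Upstream of H2-Aa lay the region in which the cell types differed most among the members. Its coordinates are chr17:34293493-34294017, its summit lay 5924 bp ahead of the H2-Aa start, and it falls inside the antisense gene Gm20513 and in no annotated exon at the summit. It stood at 88.6 and 56.6 in WT LSK+ and at 92.3 and 83.9 in XistΔ/Δ LSK+. In LSK− cells it stood at 9.37 in WT replicate 1, was not listed in WT replicate 2, and stood at 18.9 and 45.3 in XistΔ/Δ. All 4 LSK+ libraries lay above all 4 LSK− libraries. The fragment pileup at the summit was 77 and 22 in WT LSK+, 137 and 91 in XistΔ/Δ LSK+, 17 in LSK− WT replicate 1, and 33 and 25 in XistΔ/Δ LSK−. LSK− XistΔ/Δ replicate 1 had the highest background of the 8 libraries, and its pileup was still below those of 3 LSK+ libraries. The H2-Aa promoter had pileups of 25 to 110 in LSK+ and 26 to 113 in LSK−. Divided by each library's background pileup, the promoter values were 51.9 to 72.8 in LSK+ and 26.2 to 45.6 in LSK−, without overlap. For the upstream region they were 45.6 to 94.6 in LSK+ and 8.54 to 21.1 in the LSK− libraries that listed it. On this scale both regions were thus lower in LSK−. So was the H2-Ab1 promoter, at 49.3 to 64.45 in LSK+ and 22.2 to 35.3 in LSK−. The H2-Eb1 promoter stood at 41.5 to 60.5 and 24.8 to 40.5, whereas the inner H2-DMa start overlapped, at 104.5 to 206.9 and 100.1 to 190.7. The share of all regions without overlap on this scale was not computed. The split can therefore not be read as particular to H2-Aa.

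The 201 bases around the summit of this region (chr17:34293647-34293847, forward strand, GRCm38.p6) are shown as the sequence under the clearest cell type difference. Capitals mark matches to the motifs above, GAGGAA read as TTCCTC at −81 and −40 and CACGTG at 28 from the summit.
H2-Aa upstream region: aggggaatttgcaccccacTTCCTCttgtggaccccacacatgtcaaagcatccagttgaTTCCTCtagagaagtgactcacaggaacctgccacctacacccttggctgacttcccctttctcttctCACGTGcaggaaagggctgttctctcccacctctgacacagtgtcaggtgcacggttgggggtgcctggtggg

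GAGGAA is the core that PU.1, encoded by Spi1, reads, and it occurred in 31.5% of the 60447 windows of 201 bases around the summits of all regions tested. CACGTG, the E-box letters, occurred in 5.33% of them.

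At H2-Ab1 a region with its summit 5404 bp ahead of the start (chr17:34257484-34258067, at the start of a transcript in the full annotation only) was as strong as the promoter. It stood at 90.9 and 67.7 in WT LSK+, 92.2 and 80.6 in XistΔ/Δ LSK+, 73.7 and 40.7 in WT LSK−, and 78.6 and 64.5 in XistΔ/Δ LSK−. Within every pair of the same genotype and replicate the LSK+ library was the higher, though the ranges of LSK+ and LSK− overlapped. A region 1300 bp past the H2-Ab1 start was absent in both LSK+ WT libraries and stood at 6.47 to 43.6 in the other 6. The region 905 bp ahead of H2-Eb1 was missing in LSK+ WT replicate 2 and LSK− WT replicate 1 and stood at 41.8 to 75.4 elsewhere. A region 8420 bp ahead of H2-Aa, which also falls within 10000 bp of H2-Eb1, was listed in 6 libraries at 44.0 to 67.3. The region 7.8 kb past the H2-Eb1 start was listed in the 4 replicate 1 libraries, at 49.6 to 67.5, and in no replicate 2 library.

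**Figure D2:**
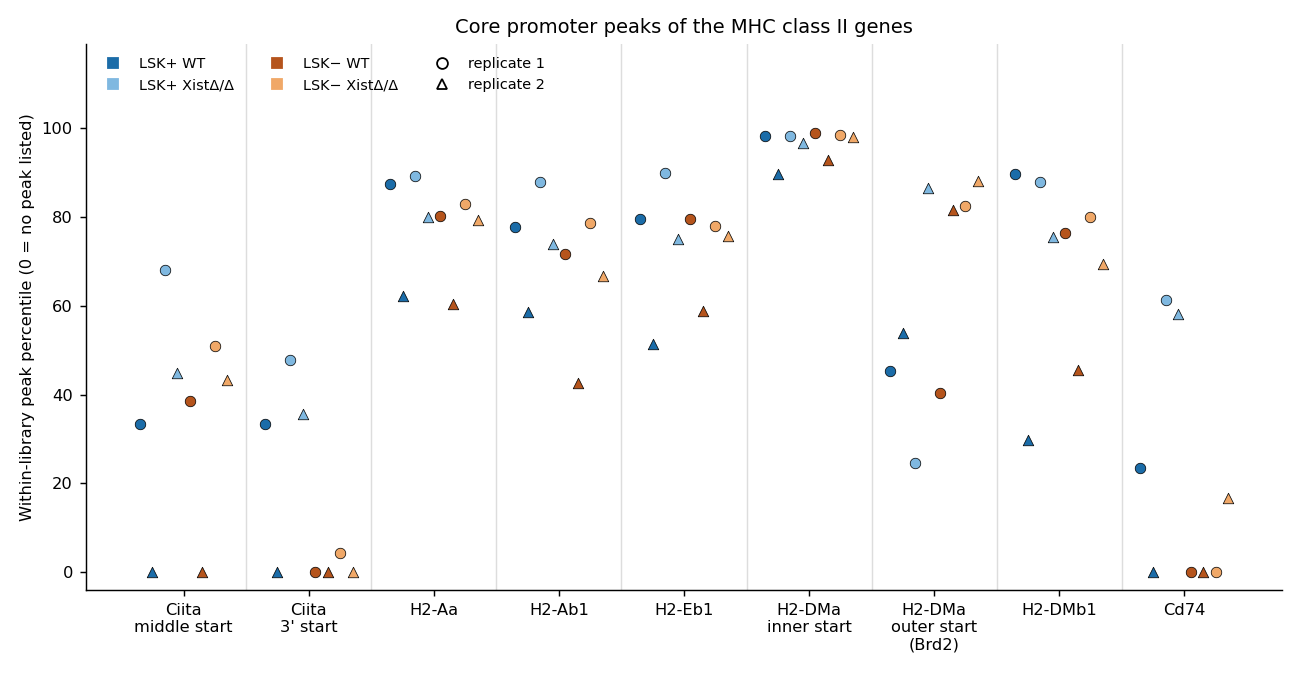
Core promoter peaks. The y axis is the within-library percentile, with 1 point per library, colour for group and shape for replicate. The inner H2-DMa start is at 89.7 or higher in all libraries, whereas Cd74 and the 3′ Ciita start are at 0 in 4 libraries each.

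Cd74 (ENSMUSG00000024610.15, chr18:60803848-60812652, forward strand) had its strongest peaks past the start site. The region just ahead of the start (chr18:60803400-60803823, summit 172 bp ahead) is called the Cd74 start here. It stood at 23.5 and 0 in WT LSK+ and at 61.3 and 58.1 in XistΔ/Δ LSK+. It was missing in both LSK− WT libraries and in LSK− XistΔ/Δ replicate 1, and stood at 16.6 in LSK− XistΔ/Δ replicate 2. An intronic region 2.0 kb past the start (chr18:60805599-60806308) was listed in all 8 libraries, at 87.7 and 32.8 in WT LSK+, 84.7 and 66.2 in XistΔ/Δ LSK+, 78.9 and 24.8 in WT LSK−, and 72.6 and 50.2 in XistΔ/Δ LSK−. Replicate 2 libraries were the lower in each group. A further region 3.6 kb past the start (chr18:60807046-60807708) stood at 76.2 and 52.2, 88.9 and 71.3, 61.5 and 57.7, and 55.5 and 68.3 in the same order. In every library the region at 2.0 or 3.6 kb was stronger than the one just ahead of the start.

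The inner H2-DMa start had the narrowest range of the core promoters. This start (ENSMUSG00000037649.10, region chr17:34135308-34135936) stood at 89.7 to 98.2 in LSK+ and at 92.8 to 98.9 in LSK−. The outer H2-DMa start shares its region (chr17:34122005-34122915) with the start of Brd2, a chromatin reader gene, and stood at 24.6 to 86.5 in LSK+ and 40.4 to 88.2 in LSK−. The H2-DMb1 promoter (ENSMUSG00000079547.4, region chr17:34152829-34153561) stood at 89.8 and 29.7 in WT LSK+, 87.8 and 75.4 in XistΔ/Δ LSK+, 76.3 and 45.6 in WT LSK−, and 80.1 and 69.5 in XistΔ/Δ LSK−. The lowest of these was again LSK+ WT replicate 2. A region between H2-DMa and H2-DMb1 (chr17:34142532-34143687) that holds the start of H2-DMb2 stood at 67.0 to 89.9 in LSK+ and 64.9 to 83.6 in LSK−. The region 3.3 kb ahead of the outer H2-DMa start (chr17:34119074-34119933) was listed in all 8 libraries. It stood at 79.05 to 95.8 in LSK+ and at 85.1 to 98.0 in LSK−, the higher value in each pair being LSK−. Of the other distal regions here, the one 13.2 kb ahead of the outer H2-DMa start (chr17:34109222-34110285) was listed in 6 libraries, at 20.7 to 54.2 in LSK+ and 37.9 to 57.2 in LSK−. The region 4.8 kb past that start (chr17:34127428-34127891) was listed in the same 6 libraries, at 60.2 to 67.9 in LSK+ and 50.7 to 70.0 in LSK−. Both were missing in the WT replicate 2 libraries. The region 11.6 kb past the H2-DMb1 start (chr17:34164456-34164762) was listed in 4 libraries, at 27.9 and 22.4 in XistΔ/Δ LSK+, at 4.61 in LSK− WT replicate 2 and at 25.6 in LSK− XistΔ/Δ replicate 1. The region 12.2 kb past that start (chr17:34165099-34165587) was listed in 7 libraries and missing in LSK+ XistΔ/Δ replicate 2. It stood at 58.6 and 0.0587 in WT LSK+, 52.8 in LSK+ XistΔ/Δ replicate 1, and 8.54 to 69.95 in LSK−.

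LSK− and LSK+ were then compared across all regions. At the 27 member regions listed in at least 4 libraries, those at H2-Aa −5.9 kb, the Cd74 start and the 3′ Ciita start had the lowest p-values, each with lower percentiles in LSK−. In limma, fitted without a term for the replicate, 0 of 60447 regions passed an adjusted p of 0.05 (0.0%), and so did 0 of the 27. At an unadjusted p under 0.05 there were 10620 regions (17.6%) and 4 of the 27 members. The lowest adjusted p of a member was 0.0724, at H2-Aa −5.9 kb, where the difference was −61.9 ± 15.9 points (SE, limma). The Cd74 start differed by −31.6 ± 10.4 points (adjusted p = 0.137, limma), the 3′ Ciita start by −28.2 ± 9.77 (adjusted p = 0.158, limma) and the region over the H2-Eb2 start by −19.9 ± 7.9 (adjusted p = 0.217, limma). The last 3 were listed in 3 LSK+ libraries and 1 LSK− library each, so that they passed the minimum of 4 libraries mostly through LSK+.

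Replicate 1 libraries share a sequencing run code and replicate 2 libraries another, so a fit with the replicate as a block compared libraries within a run. With the block, limma called 6246 of 60447 regions higher in LSK− (10.3%) and 4360 lower (7.21%). Of the 27 member regions, 0 were called higher and 4 lower (14.8%). Among these 4, the Cd74 start and the 3′ Ciita start met the minimum of 4 libraries mostly through LSK+. That filter favours a lower value in LSK−, so their calls are no independent test of direction. The adjusted p was 0.00443 for H2-Aa −5.9 kb (−61.9 ± 13.0), 0.0191 for the Cd74 start (−31.6 ± 8.55), 0.0215 for the 3′ Ciita start (−28.2 ± 7.81) and 0.049 for H2-Ab1 −5.4 kb (−18.5 ± 6.12) in that limma fit. When each library was left out in turn from the blocked fit, H2-Aa −5.9 kb was called in all 8 fits, with differences of −51.2 to −72.7 and adjusted p of 0.000714 to 0.0332 in limma. The number of members called was then 5 of 27 without LSK+ WT replicate 2, where 18.4% of all regions were called. It was 2 of 26 without LSK− WT replicate 2 (11.0% of all regions) and 2 of 26 without LSK− XistΔ/Δ replicate 2 (12.3%). Without any of the other 5 libraries it was 1, while the share of all regions called was 18.0% without LSK+ WT replicate 1, 10.2% and 14.8% without XistΔ/Δ replicate 1 and 2 of LSK+, 4.15% without LSK− WT replicate 1 and 8.31% without LSK− XistΔ/Δ replicate 1. The H2-Ab1 region was called in none of these 8 fits, with adjusted p of 0.0569 to 0.283 in limma. The Ciita region was called in 3 of the 4 fits that tested it and the Cd74 start in 1 of 4. In the other fits these regions were left with peaks in fewer than 4 libraries and were not tested.

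**Figure D3:**
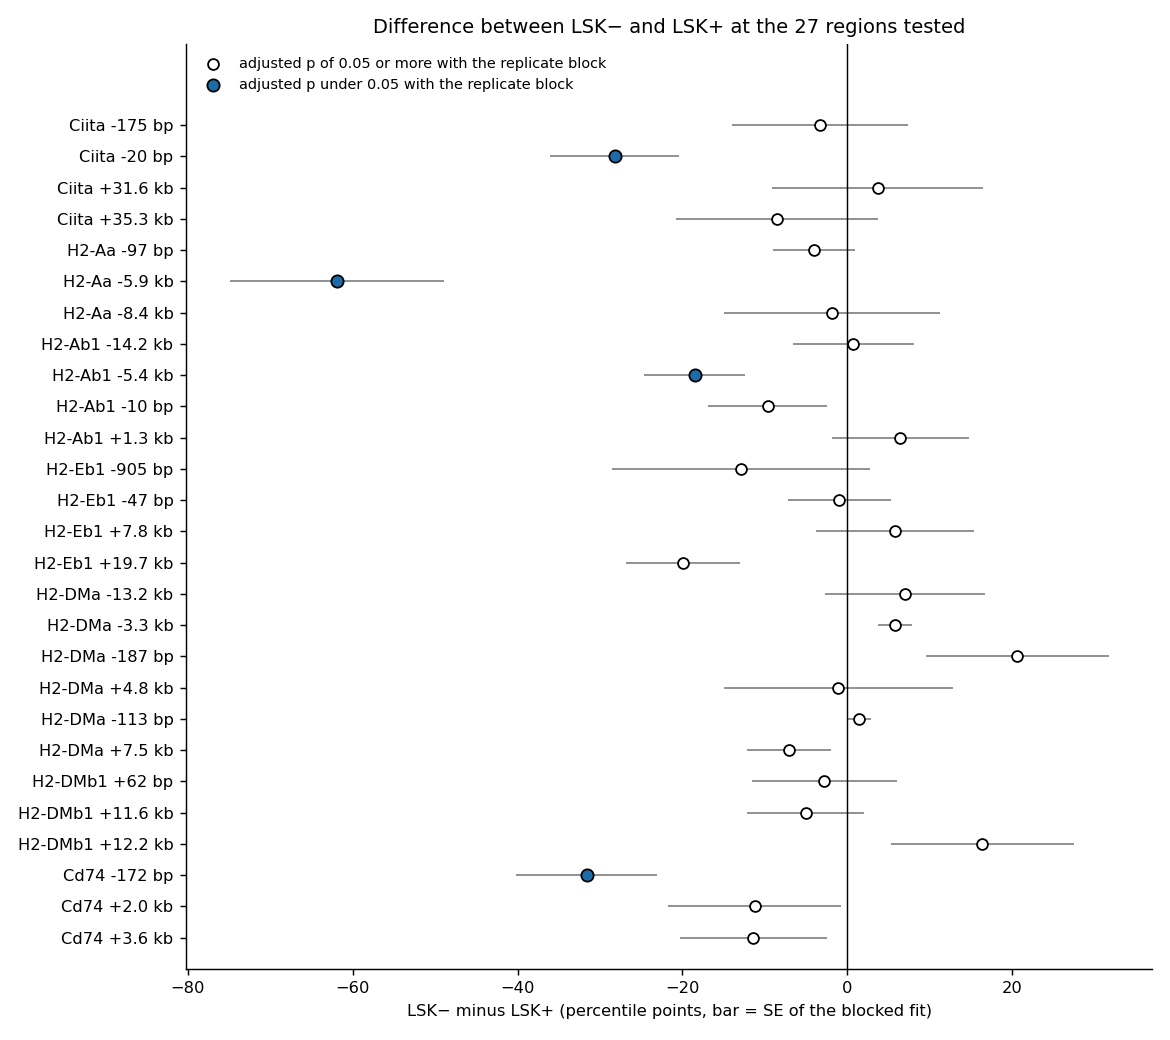
LSK− minus LSK+ at the 27 regions tested, in percentile points on the x axis, with bars for the SE of the limma fit with the replicate block. Filled points are the 4 regions with an adjusted p under 0.05 in that fit, all to the left of 0. Among them, the Cd74 start and the 3′ Ciita start passed the library minimum mostly through LSK+. H2-Aa −5.9 kb is farthest left at −61.9.

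By direction alone, 5 of the 27 member regions were lower in LSK− in all 4 pairs of the same genotype and replicate (18.5%), against 13.6% of all regions. They were the H2-Aa promoter and −5.9 kb region, the H2-Ab1 promoter and −5.4 kb region, and Cd74 at 2.0 kb. Higher in all 4 pairs were 4 of 27, against 19.6%, namely the H2-DMa inner promoter, the region 3327 bp ahead of the outer H2-DMa start, H2-Ab1 at 1.3 kb and H2-DMb1 at 12.2 kb. The median difference of the 27 was −3.28 points, against 0.946 over all regions. Only H2-Aa −5.9 kb had non-overlapping groups, as did 4.18% of all regions in that direction.

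Lists of equal length were compared next. When only the top 29829 peaks of each library were ranked, 15 member regions were in at least 4 libraries. Of these, 6 were lower in LSK− in all 4 pairs, against 21.3% of 29559 regions, and 2 were higher, against 19.9%. The sixth region was Cd74 at 3.6 kb. The median difference was −18.1 points for the 15 and −0.0595 for all. H2-Aa −5.9 kb stood at 56.7 to 78.6 in LSK+ and was listed in no LSK− library, so that it was among the 15 only through LSK+ and its direction and call there are set by that filter. H2-Ab1 −5.4 kb was listed in all 8 libraries, at 58.9 to 80.7 in LSK+ and 25.3 to 37.3 in LSK−. It differed by −40.8 in limma without the block (adjusted p = 0.0372), a fit that called 13.7% of all regions.

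**Figure D4:**
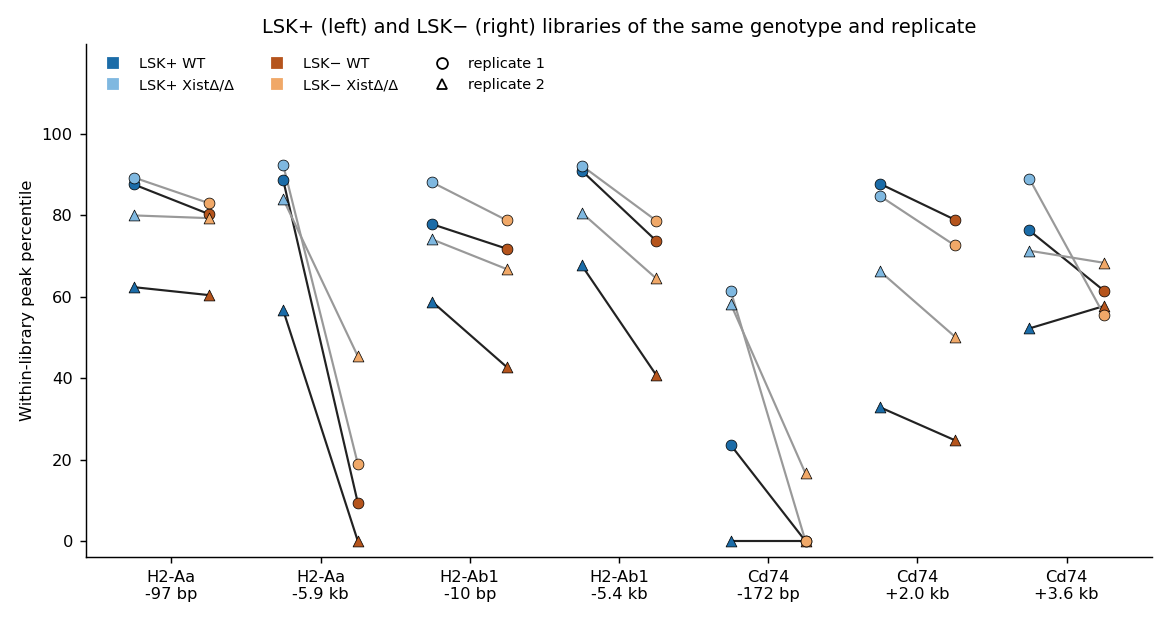
LSK+ and LSK− percentiles of the same genotype and replicate, joined by lines, at 7 regions of H2-Aa, H2-Ab1 and Cd74. All 4 lines fall at H2-Aa −97 bp and −5.9 kb, H2-Ab1 −10 bp and −5.4 kb, and Cd74 at 2.0 kb, and the drop is steepest at H2-Aa −5.9 kb.

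Next, XistΔ/Δ was compared with WT within each cell type. In LSK+, 19 of the 27 member regions were higher in XistΔ/Δ in both replicates (70.4%), against 62.3% of all regions. In LSK− this held for 13 of 27 (48.1%), against 53.1%. Lower in both replicates was 1 of 27 members in LSK+ (3.7%, H2-DMb1 at 12.2 kb), against 1.16% of all regions, and 2 of 27 in LSK− (7.41%), against 1.64%. On the equal lists, 4 of 15 were higher and 3 lower in LSK+, against 24.6% and 22.8%, and 1 was higher and 3 lower in LSK−, against 19.3% and 20.8%. The median difference of the 27 was 17.1 points in LSK+ and 10.5 in LSK−, beside 14.3 and 9.3 over all regions.

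No region, member or other, passed an adjusted p of 0.05 in limma in either cell type on these percentiles over all 8 libraries, with or without the replicate block. With percentiles centred on each library's median, 1 region passed in LSK+ (0.00165%), not a member. The median member difference then changed sign, to −14.2 points in LSK+ and −10.2 in LSK−, beside −17.0 and −11.3 over all regions. The sign of the general shift thus depended on the scaling. With the block and 1 library left out, LSK+ calls appeared in 4 of the 8 fits. Without LSK+ WT replicate 1 they numbered 7108 (13.0% of regions), among them 2 of 23 members, the H2-DMb1 promoter and the H2-DMb2 start. Without LSK− XistΔ/Δ replicate 1 there were 751 (1.48%), among them 1 of 24 members, the Cd74 start. There were 1088 (2.0%) without LSK− XistΔ/Δ replicate 2 and 2 (0.00336%) without LSK+ WT replicate 2, and none of these was a member. Without the block, 3539 regions had an unadjusted p under 0.05 in LSK+ and 1632 in LSK−, among them 3 members and 0 members. The largest member difference in LSK+ was at the Cd74 start, where XistΔ/Δ exceeded WT by 47.9 ± 14.6 points (limma, adjusted p = 0.712, and 0.148 with the block). The percentiles there were 61.3 and 58.1 in XistΔ/Δ against 23.5 and 0 in WT. A higher XistΔ/Δ value in both replicates was found at 62.3% of all regions in LSK+. On the equal lists the Cd74 start was listed only in XistΔ/Δ replicate 2. Of the Ciita starts, the middle one differed by 39.7 points and the 3′ one by 25.0 points in LSK+, each with an adjusted p of 0.712 in limma. The inner H2-DMa start differed by 3.51 points, the H2-Aa promoter by 9.66 and the H2-Ab1 promoter by 12.8, below the median shift of all regions, and the H2-Eb1 promoter by 16.9 and the H2-DMb1 promoter by 21.9, above it.

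**Figure D5:**
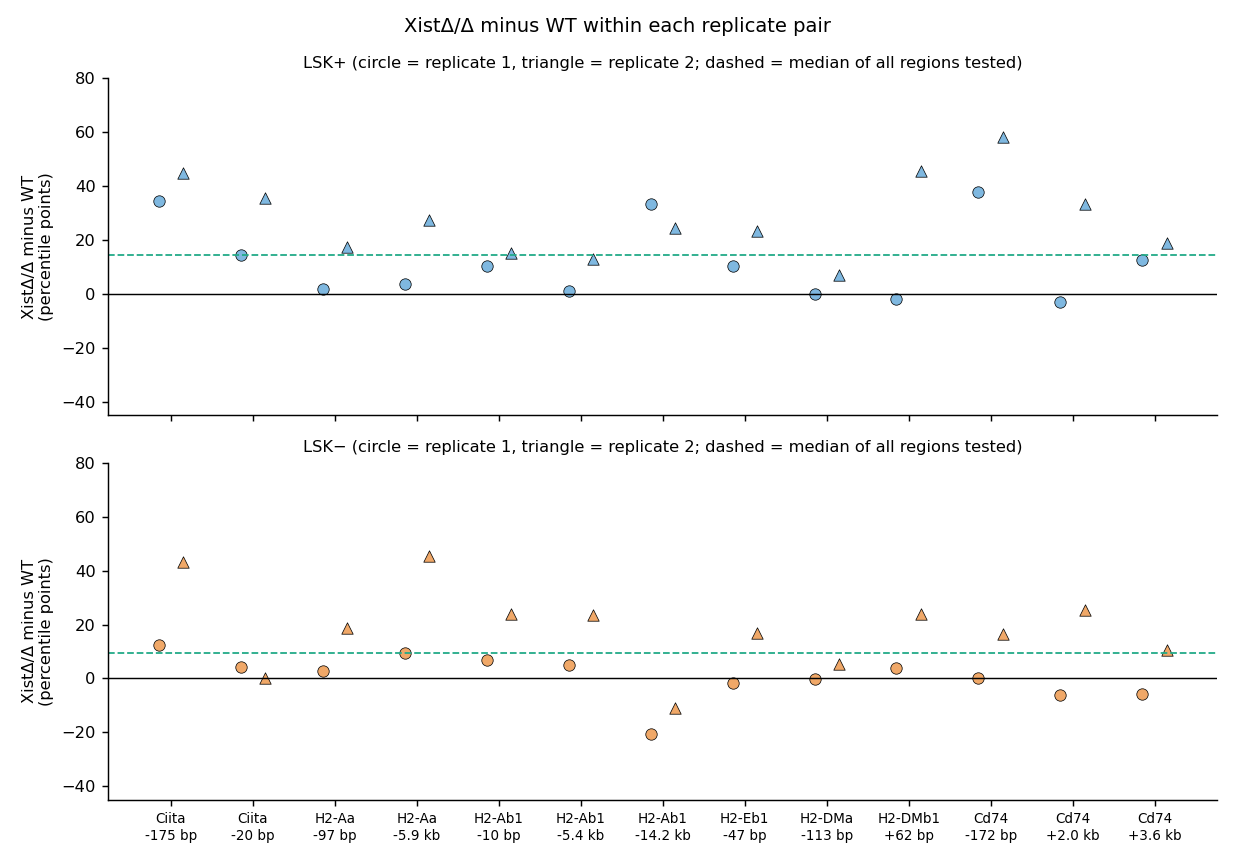
XistΔ/Δ minus WT within each replicate pair in LSK+ (upper) and LSK− (lower), in percentile points, for 13 member regions. The dashed lines are the medians over all regions tested, 14.3 and 9.3 points, and replicate 2 lies above replicate 1 at most regions.

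Other genes of antigen presentation were read at their promoters, in lists that include partners of class II, peptide-processing enzymes, costimulatory molecules, regulators and the class I pathway. Of the 34 genes, 26 had a promoter peak in at least 4 libraries. In limma without the block, 0 of them were called between LSK− and LSK+, against 0.0% of all regions. With the block 0 were called too, against 17.5% of all regions, the lowest adjusted p being 0.0524. An unadjusted p under 0.05 was found in that fit for 5 of the 26, against 31.4% of all regions. The H2-DMb2 and H2-Eb2 starts among the 26 lie in member regions tested above. Among the 5 partners, H2-Oa, a chain of the H2-DM inhibitor H2-O, stood at 71.3, 36.7, 79.7 and 50.4 in the LSK+ libraries and at 49.9, 0, 35.2 and 27.2 in the LSK− libraries, lower in LSK− in each pair. The H2-Eb2 start was listed in 3 LSK+ libraries at 22.0 to 33.6 and in 1 LSK− library at 4.49. Of the 12 regulators, 11 had a promoter peak in all 8 libraries, including the RFX subunits Rfx5 (95.6 to 99.8), Rfxank (94.1 to 99.4) and Rfxap (71.0 to 93.6), and Spi1 had none within 500 bp of its start. All 9 class I genes had a promoter peak in at least 1 library and 6 in all 8, among them B2m (90.0 to 99.6), the light chain of class I molecules. Tap1 and Psmb9 share 1 region.

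The gates and other cell types were checked at marker promoters. The 6 LSK− markers separated the gates only in part. Gata1 and Klf1, erythroid transcription factors, had no promoter peak in the 4 LSK+ libraries and a peak in all 4 LSK− libraries (17.5 to 72.7 and 30.6 to 86.3). Mpo was listed in all 8 libraries, at 23.3 to 70.3 in LSK+ and 52.8 to 74.1 in LSK−. Gfi1b was listed in 7, at 57.7 to 66.1 in LSK+ where listed and 46.3 to 81.1 in LSK−. Elane was listed in 2 libraries and Cebpe in 1, all of them LSK−. The 6 LSK+ markers did not separate the gates, with summed percentiles of 170 to 248 in LSK+ and 95.0 to 246 in LSK−, and Ly6a, which encodes SCA-1, had no promoter peak in any library. Among B cell markers, Cd79a and Ms4a1 had no promoter peak in any library and Pax5 had one at 0.519 in LSK+ XistΔ/Δ replicate 2. T cell markers Cd3e, Cd4 and Cd8a had none. Of 5 dendritic cell markers, Cd209a and Xcr1 had none, while Itgax, Siglech and Zbtb46 were listed in 6, 6 and 4 libraries. The summed percentiles of this list were 45.0 and 0 in WT LSK+ and 127 and 150 in XistΔ/Δ LSK+. They were 102 and 74.6 in WT LSK− and 91.4 and 136 in XistΔ/Δ LSK−. Of 4 monocyte and macrophage markers, Ccr2 had none, while Adgre1, Cd14 and Csf1r were listed in 7, 6 and 2 libraries. Adgre1 stood at 50.5 to 72.1 where listed. The sums of this list were 0 to 108 in LSK+ and 54.6 to 107 in LSK−. The dendritic and monocyte sums overlapped between the gates. In LSK+ the dendritic sums were higher in XistΔ/Δ, where lists were longer in the same replicate. The part of these cell types in the class II signal, or in its XistΔ/Δ minus WT difference, was not tested.

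The promoters most like each member's over the 8 libraries were found by the Euclidean distance of percentiles among 21727 protein-coding genes. The 3′ Ciita start lay nearest to Il27 (distance 7.15 points) and Ttll10 (8.26), whereas the middle start was nearest to Aoah (14.4) and F2rl2 (15.0). H2-Aa lay nearest to St5 (6.7) and Dynlrb2 (6.79), H2-Ab1 to Ninj2 (11.0) and Nsg2 (11.8), H2-Eb1 to Cdk5r2 (8.39) and Pld1 (10.4), and H2-DMb1 to Clec4a2 (10.1) and Ripk3 (12.7). The inner H2-DMa start was nearest to Zfyve1 (1.67) and Chchd2 (1.73), and the outer one shared its region with Brd2 and lay next nearest to Cdk5r1 (17.5). The Cd74 start had no close neighbour, the nearest being Myl10 (21.3) and Ripor2 (23.5).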

How the data were processed

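The authors trimmed reads with Trim Galore, aligned them to mm10 with Bowtie2 2.3.5.1, kept a mapping quality of at least 30 without mitochondrial reads (SAMtools 1.10) and called peaks per library with MACS2 2.2.7.1 at q 0.01 on paired-end fragments. No control library, duplicate removal or Tn5 shift was stated, which can displace positions by some bases. The deposited lists give each peak's fold enrichment (a ratio), −log10 p-value and −log10 q-value, a score and a summit offset. The score was not used. The read counts behind the study's own test were not used here.

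Peaks on chromosomes 1 to 19 and X were ranked by −log10 p within a library and merged across libraries where they overlapped. The members, lists and tests were chosen with earlier results of these data known. Regions listed in at least 4 of 8 libraries were tested in limma 3.58.1 (R 4.3.3, trend, 2-sided, Benjamini-Hochberg over all regions), on percentiles with 0 for no peak. Gene starts were those of GENCODE M21 (basic set, GRCm38). On all 20 chromosomes the last peak ended within the GRCm38.p6 length. Fragment pileups were solved from fold and −log10 p, after a test on simulated data. Because percentiles depend on list length, equal lists of the top 29829 peaks were an alternative.

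The replicate numbers were taken as pairing the libraries. Same-numbered libraries share a run code in their file names, and deviations of replicate 1 from its group mean correlated between groups at 0.161 to 0.464, over 0.1 in all pairs of groups. Replicate 1 also had the longer list in each group, so these correlations cannot tell pairing from list length. The fit given first had no block, and the blocked fit is given where it changed a call. Named regions were all core promoter regions of the members (within 500 bp of a start) and all distal regions in at least 4 libraries, and the rest were counted. The other promoter regions named, at H2-Ab1, H2-Eb1 and Cd74, were chosen after their values were seen. One marker gene is not reported here.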

Additional observations from a re-analysis of the deposited data

Results flagged for a closer look

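At 2 of the 27 member regions tested the XistΔ/Δ minus WT difference had opposite signs in LSK+ and LSK− in both replicates, as it had at 1.44% of all regions. At H2-Ab1 −14.2 kb (chr17:34248759-34249045) the LSK+ libraries went from 0 and 0 in WT to 33.3 and 24.5 in XistΔ/Δ, and the LSK− libraries from 35.1 and 11.0 to 14.7 and 0. The difference between the 2 effects was −44.6 points (limma, adjusted p = 1.0). At Ciita 35.3 kb past the 3′ start the LSK+ libraries rose from 68.2 and 27.4 to 84.2 and 45.6 and the LSK− libraries went from 58.1 and 42.8 to 49.7 and 40.7, with a difference between the effects of −22.4 points (limma, adjusted p = 1.0). Groups of 2 libraries were too small for a test of single outlying libraries.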

How the results depend on the processing

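Without the replicate block, the number of member regions called between LSK− and LSK+ in limma stayed at 0 when peaks were ranked by fold, when regions in at least 2 libraries were tested, when only peaks with −log10 q of at least 5 were kept, when peaks covering under 50% of a region were ignored, and when any library was left out (0 to 0). It was 4 of 27 with the replicate block (17.5% of all regions), 2 of 15 on the equal lists (13.7%), 1 of 27 with percentiles centred on each library's median (11.7%), and 3 of 15 on the equal lists with the replicate block (27.2%). The 4 of 27 include the Cd74 start and the 3′ Ciita start, which passed the library minimum mostly through LSK+. Both equal-list counts include H2-Aa −5.9 kb, which passed the library minimum there through LSK+ alone and had to be lower in LSK−. The last combination, and the replicate block with each library left out (1 to 5), were chosen after seeing the data. For XistΔ/Δ against WT in LSK+, the replicate block gave 2 member calls without LSK+ WT replicate 1 (of 23, the H2-DMb1 promoter and the region of the H2-DMb2 start, with 13.0% of all regions), 1 without LSK− XistΔ/Δ replicate 1 (of 24, the Cd74 start, with 1.48%) and 0 in the other settings. In LSK− it was 0 in all settings. Regions called under the block kept a lower value in LSK− in every setting that tested them. For the Cd74 start, the 3′ Ciita start and H2-Aa −5.9 kb on the equal lists, the library minimum favoured that sign. Its constancy there is therefore no support. The number of member regions was 44, 35 within 5000 bp, 42 at the stricter q and 24 on the equal lists, where fewer peaks are ranked. With 2 libraries a group and no read counts, an unlisted peak sets only that its signal missed the peak threshold. The percentile treats it as 0, which overstates a difference next to a weak peak.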
